A study of Mus musculus with 12 samples.

Results

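Cd274 and Pdcd1lg2 encode PD-L1 and PD-L2, the ligands of the T cell inhibitory receptor PD-1. They were chosen as the complete ligand pair of that receptor, and they are 2 of the 53458 genes, and 2 of the 136288 transcript rows, measured in RNA-seq libraries of mouse type 1 conventional dendritic cells (cDC1) from the inguinal lymph node. The libraries were 12, with 3 in each of 4 groups. Tumor-CD40 cells came from mice with a subcutaneous KPC tumor given a CD40 agonist. NoTumor-CD40 cells came from mice given the agonist without a tumor. Tumor-NoCD40 cells came from mice with the tumor and no agonist, and NoTumor-NoCD40 cells from mice with neither. KPC is the usual name of a mouse model of pancreatic cancer. The labels give no strain, age, sex, dose, time or sort gate, and leave unsaid whether each library is from its own animal, so p-values reflect only how much these samples varied.

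PD-L1 and PD-L2 sit on antigen-presenting cells and, on binding PD-1, dampen the T cells that these cells activate. PD-L1 also binds CD80 on the same membrane, and PD-L2 also binds RGMb. PD-L1 is widely inducible, classically by interferon gamma through the kinases JAK1 and JAK2 and the transcription factor IRF1, whereas PD-L2 is found mainly on dendritic cells and macrophages and responds to IL-4 through STAT6 and to GM-CSF. CD40 is the receptor through which helper T cells license dendritic cells, and it signals through TRAF proteins to NF-kB. cDC1 are the dendritic cells specialised in presenting debris of other cells to CD8 T cells, and they take on a CCR7-positive mature state in which PD-L1 and PD-L2 are both part of the known programme.

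The genes are neighbours on the plus strand of chromosome 19 (GRCm38, which is mm10). Cd274 (ENSMUSG00000016496) spans 29367455 to 29388095 and has 1 annotated transcript (ENSMUST00000016640) of 7 exons and 3622 bases. Pdcd1lg2 (ENSMUSG00000016498) spans 29410919 to 29471161, and its deposited transcript (ENSMUST00000112576) has 6 exons and 1649 bases. The 2nd annotated Pdcd1lg2 transcript had no transcript row, so it could not be used here. A gap of 22.8 kb separates the genes. Each gene therefore had 1 transcript row, and its gene value equals that row.

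The starts of the genes are shown because the pair lies side by side yet, as described below, did not follow the groups in the same way. The sequences are RefSeq's for GRCm38.p6, plus strand, ending at the base before the RefSeq start. For Cd274 they begin past the first exon of Plgrkt, a neighbour on the minus strand that is transcribed away from it. Capitals mark the only matches to the motifs that were searched.
Cd274, chr19:29367391-29367437: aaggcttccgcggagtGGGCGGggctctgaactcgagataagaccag
Pdcd1lg2, chr19:29410669-29410918: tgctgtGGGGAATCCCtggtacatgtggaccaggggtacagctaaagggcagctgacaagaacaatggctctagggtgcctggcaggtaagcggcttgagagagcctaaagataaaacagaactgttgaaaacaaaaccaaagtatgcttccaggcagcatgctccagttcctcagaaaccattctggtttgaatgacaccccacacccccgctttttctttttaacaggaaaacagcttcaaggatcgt
The 47 Cd274 bases held 61.7% G or C and the 250 Pdcd1lg2 bases 48.4%, over stretches of unlike length. Motifs were searched on both strands in the whole RefSeq window of 300 bases, 250 before and 50 after the start. The Cd274 window held 1 GC box (GGGCGG), 31 to 26 bases before the start, a motif present in 35.7% of 32851 such windows. The Pdcd1lg2 window held 1 match to the kappaB consensus, the motif of NF-kB, 244 to 235 bases before the start, and 4.51% of windows had one. Neither window held the letters of the interferon gamma element GAS (TTCNNNGAA, in 8.3% of windows), of the ISRE core (3.44%) or of TATAAA (13.6%). A match is a description of letters, and its absence concerns this window alone.

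Library totals of expected counts lay between 22855143 and 27163393, and 18095 genes passed the low-count filter, both ligands among them. A gene counted as detected in a group if it was not at 0 in all libraries of that group. All listed B, T and NK cell markers met this in every group, so it does not tell cell types apart. All 10 listed cDC1 markers were also detected in every group, Xcr1 and Clec9a included. Their summed level ranged from 3952 to 5171 CPM (expected counts relative to the scaled library total, not corrected for gene length) in Tumor-CD40 libraries, from 2460 to 7840 CPM in NoTumor-CD40, from 1923 to 11122 CPM in Tumor-NoCD40 and from 6814 to 9774 CPM in NoTumor-NoCD40. The sum of 8 B cell markers stood apart in Tumor-CD40 libraries, at 678 to 1882 CPM, against 72.5 to 228 CPM in NoTumor-CD40, 48.9 to 135 CPM in Tumor-NoCD40 and 21.4 to 94.2 CPM in NoTumor-NoCD40. None of the 8 was at 0 in all libraries of a group. The sum of 7 plasmacytoid dendritic cell markers went with the agonist, at 496 to 635 CPM in Tumor-CD40 and 291 to 549 CPM in NoTumor-CD40, against 192 to 245 CPM in Tumor-NoCD40 and 163 to 235 CPM in NoTumor-NoCD40. Spib averaged 245, 251, 79.2 and 42.6 CPM in that order of groups, while Siglech, the defining surface marker of these cells, averaged 2.51, 1.09, 2.8 and 2.05 CPM. The sum of 6 monocyte markers was high in NoTumor-NoCD40, at 190 to 299 CPM, against 82.2 to 142 CPM in Tumor-CD40, 51.1 to 122 CPM in NoTumor-CD40 and 60.7 to 165 CPM in Tumor-NoCD40. Most single monocyte markers did not follow this sum. Of the 5 tested, 3 had an agonist log2 fold change above 0 without a tumor (median 1.12) and 4 with one (1.26). The medians over all tested genes were -0.04 and -0.02. The sum of 7 endothelial and stromal markers was 45.3 to 84.1 CPM in Tumor-CD40 and 34.1 to 50.7 CPM in NoTumor-CD40, against 23.1 to 27.8 CPM in Tumor-NoCD40 and 23.5 to 24.3 CPM in NoTumor-NoCD40, with Lyve1 at 0 in both groups without agonist. The sum of 7 macrophage markers was 25.9 to 47.8 CPM in Tumor-CD40, 7.15 to 16.5 CPM in NoTumor-CD40, 7.19 to 22.3 CPM in Tumor-NoCD40 and 7.34 to 10.3 CPM in NoTumor-NoCD40, with Vsig4 at 0 throughout. The Langerhans cell list held only Cd207 and Epcam, and which cells gave this RNA was not tested. Its sum was lowest in Tumor-CD40, at 7.02 to 10.3 CPM, against 12 to 83.9 CPM in NoTumor-CD40, 30.2 to 86.3 CPM in Tumor-NoCD40 and 97.9 to 127 CPM in NoTumor-NoCD40. The sum of 6 type 2 conventional dendritic cell (cDC2) markers was 65.5 to 75.3 CPM in Tumor-CD40 and 52.8 to 91 CPM in NoTumor-CD40. It was 32.7 to 66.9 CPM in Tumor-NoCD40 and 23.2 to 57.4 CPM in NoTumor-NoCD40. In the same order of groups the T cell sum was 120 to 290, 127 to 162, 97.3 to 526 and 107 to 177 CPM. The NK cell sum was 12.1 to 66.5, 16.1 to 28.2, 14.6 to 95.7 and 8.76 to 18 CPM. The neutrophil sum was 3.1 to 23.5, 1.59 to 29.9, 1.45 to 3.31 and 0.287 to 2.45 CPM. The part of these markers in the values of the ligands was not tested.

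Cd274 was higher in every library with agonist than in every library without it, as were 1.33% of all tested genes. Its level was 186, 243 and 199 CPM in the 3 Tumor-CD40 libraries and 268, 145 and 347 CPM in the 3 NoTumor-CD40 libraries. In libraries without agonist it was 104, 54.7 and 85.5 CPM in Tumor-NoCD40 and 53.7, 39.4 and 23.2 CPM in NoTumor-NoCD40. The lowest value of all was that of NoTumor-NoCD40 library 3. The means were 209 ± 29.6 CPM in Tumor-CD40, 253 ± 102 CPM in NoTumor-CD40, 81.4 ± 24.9 CPM in Tumor-NoCD40 and 38.8 ± 15.3 CPM in NoTumor-NoCD40 (SD, n = 3 each). The values rested on 566 to 8753 expected counts per library, and the highest CPM was 15 times the lowest.

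Pdcd1lg2 was low where both tumor and agonist were absent and higher in the other 3 groups. Its level was 16.1, 22.2 and 19.9 CPM in Tumor-CD40 libraries and 16.7, 10.5 and 15.6 CPM in NoTumor-CD40 libraries. It was 18, 12.5 and 15.6 CPM in Tumor-NoCD40 libraries and 5.93, 4.6 and 2.46 CPM in NoTumor-NoCD40 libraries. The NoTumor-NoCD40 libraries lay below all others, as they did for Cd274 and for 1.24% of all tested genes, while the other 3 groups overlapped, and library 3 of NoTumor-NoCD40 was again the lowest. The means were 19.4 ± 3.07 CPM in Tumor-CD40, 14.2 ± 3.3 CPM in NoTumor-CD40, 15.4 ± 2.73 CPM in Tumor-NoCD40 and 4.33 ± 1.75 CPM in NoTumor-NoCD40 (SD, n = 3 each). These values rested on 60 to 538 expected counts per library, and the highest CPM was 9.03 times the lowest.

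**Figure D1:**
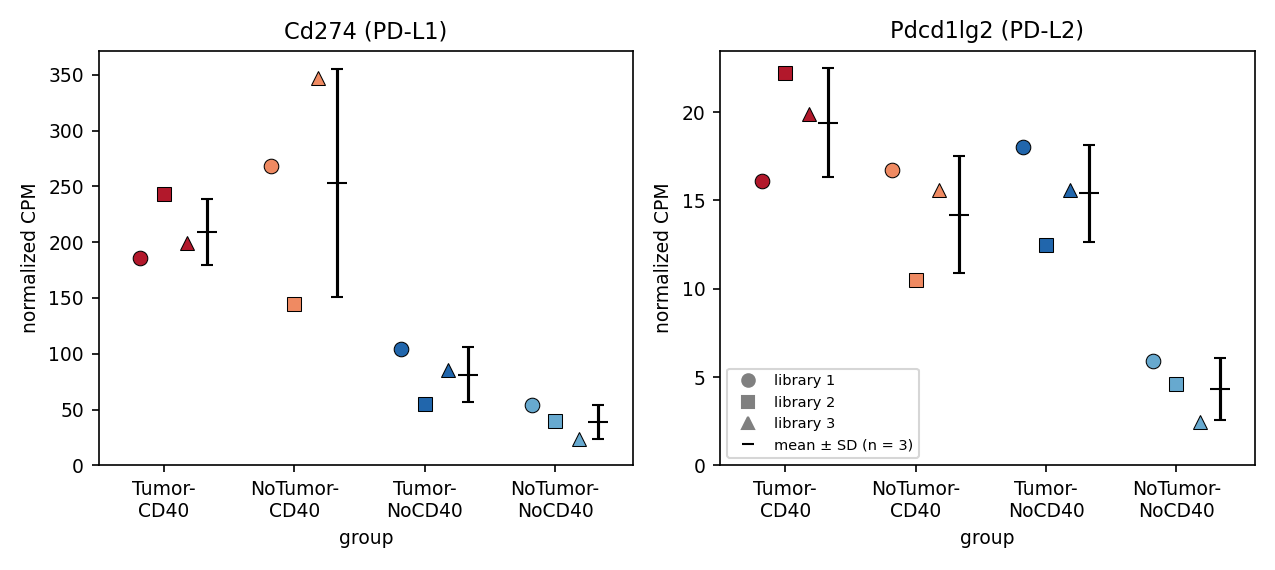
Level of Cd274 and Pdcd1lg2 in CPM (linear axis from 0) in each of the 12 libraries by group, with a symbol for each library number and the group mean ± SD (n = 3) as a bar beside them. All agonist libraries of Cd274 lie above all libraries without agonist, and for Pdcd1lg2 only the NoTumor-NoCD40 libraries, at 2.46 to 5.93 CPM, stand apart.

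Both ligands rose with the agonist in mice without a tumor. Cd274 rose 6.53-fold (log2 fold change 2.71 ± 0.35 SE, 95% interval 1.95 to 3.46, adjusted p = 0.00335, edgeR's quasi-likelihood test, Benjamini-Hochberg adjusted over all tested genes), 12th of 18095 genes by p. Pdcd1lg2 rose 3.26-fold (log2 fold change 1.71 ± 0.32 SE, interval 1.02 to 2.39, edgeR adjusted p = 0.0199), 100th by p. Both ligands passed the threshold of 0.05 on the adjusted p, as did 1.36% of all tested genes in this direction. Neither ligand's groups overlapped, and 11.2% of tested genes had all agonist libraries above all others. In bulk RNA, fewer cells of a type and less RNA per cell cannot be told apart, here and below. The Cd274 call was made under each of the 19 alternatives run. The Pdcd1lg2 call was not made with edgeR without NoTumor-CD40 library 1 (1.60, adjusted p = 0.0863) or library 3 (1.63, 0.105), without NoTumor-NoCD40 library 2 (1.76, 0.11) or library 3 (1.43, 0.13), or with limma on log2(TPM + 1) (1.40, 0.0874).

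With a tumor, neither ligand passed the threshold for the agonist, and Cd274 had the larger value. Cd274 in Tumor-CD40 was 2.57 times its level in Tumor-NoCD40 (log2 fold change 1.36 ± 0.33 SE, interval 0.65 to 2.08, edgeR adjusted p = 0.0925), and 0.641% of all tested genes were called higher. Its Tumor-CD40 libraries all lay above its Tumor-NoCD40 libraries, as in 6.5% of tested genes. This result lay near the threshold: the adjusted p was 0.00735 with DESeq2, 0.0328 with no low-count filter and 0.0449 without NoTumor-CD40 library 2. In 15 of the 19 alternatives it did not pass, with an adjusted p up to 0.272, and leaving out Tumor-CD40 library 2 or 3 gave 0.254 and 0.249. Pdcd1lg2 had a log2 fold change of 0.34 ± 0.27 SE (interval -0.25 to 0.93, edgeR adjusted p = 0.757), and its libraries overlapped.

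Averaged over both tumor states, the agonist raised Cd274 4.10-fold (log2 fold change 2.03 ± 0.24 SE, interval 1.52 to 2.55, edgeR adjusted p = 0.000627) and Pdcd1lg2 2.03-fold (1.02 ± 0.21, interval 0.57 to 1.48, edgeR adjusted p = 0.0202), where 2.17% of tested genes were called higher. The values averaged were 2.71 without a tumor and 1.36 with one for Cd274, and 1.71 and 0.34 for Pdcd1lg2. The Pdcd1lg2 call was not made without NoTumor-CD40 library 1 or 3, NoTumor-NoCD40 library 2 or 3, or Tumor-CD40 library 2 (adjusted p 0.0573 to 0.0649). Fitted as transcript rows among 51716 such rows, Cd274 had nearly the same values (averaged 2.03 ± 0.26, edgeR adjusted p = 0.0101, with 0.143% of rows called). In that fit the Cd274 row missed the threshold without a tumor (2.69 ± 0.38, edgeR adjusted p = 0.0569, with 0.00773% of rows called). It also missed the averaged threshold without NoTumor-NoCD40 library 2 (adjusted p = 0.0557). The Pdcd1lg2 row missed the threshold in both (1.69 ± 0.42, edgeR adjusted p = 0.318, and averaged 1.02 ± 0.27, adjusted p = 0.272).

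In the tumor comparison without agonist, Pdcd1lg2 had the larger fold change of the pair. Pdcd1lg2 in Tumor-NoCD40 was 3.52 times its level in NoTumor-NoCD40 (log2 fold change 1.82 ± 0.32 SE, interval 1.13 to 2.50), the 2nd smallest p of all 18095 genes (5.6e-05 unadjusted), but the adjusted p was 0.507 with edgeR. Cd274 was 2.10 times as high (1.07 ± 0.34, interval 0.34 to 1.80, edgeR adjusted p = 0.775). The libraries of the groups did not overlap for either ligand, with Cd274 at 54.7 CPM in the lowest Tumor-NoCD40 library and 53.7 CPM in the highest NoTumor-NoCD40 library, and 4.06% of genes had this order. In this comparison edgeR called 0% of genes, while 5.82% had an unadjusted p under 0.05. DESeq2 called 29 genes, Pdcd1lg2 among them (1.85, adjusted p = 0.000217). This comparison and that of the agonist without a tumor share the 3 NoTumor-NoCD40 libraries.

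With agonist, the tumor was not associated with a called difference in either ligand. Cd274 had a log2 fold change of -0.28 ± 0.32 SE (interval -0.97 to 0.42, edgeR adjusted p = 0.813), and 0.193% of genes were called higher. Its sign turned without NoTumor-CD40 library 3, to 0.04. Pdcd1lg2 had 0.45 ± 0.28 (interval -0.14 to 1.05, edgeR adjusted p = 0.629). Averaged over agonist states, the tumor values were 0.40 ± 0.23 for Cd274 (edgeR adjusted p = 0.86) and 1.13 ± 0.21 for Pdcd1lg2 (interval 0.68 to 1.59, edgeR adjusted p = 0.123, 14th by p), with 0.0166% of genes called. The Pdcd1lg2 value passed with DESeq2 (adjusted p = 0.00156), with no filter (0.0322) and without Tumor-NoCD40 library 2 (0.0388).

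The agonist's effect with a tumor minus its effect without was -1.34 ± 0.47 on the log2 scale for Cd274 (95% interval -2.35 to -0.34) and -1.36 ± 0.42 for Pdcd1lg2 (-2.27 to -0.46). Neither passed (edgeR adjusted p = 0.495 each), no gene did with edgeR (0%), 9.8% of genes had an unadjusted p under 0.05, and DESeq2 called 18 genes. In order of mean CPM, Cd274 ran from NoTumor-CD40 through Tumor-CD40 and Tumor-NoCD40 to NoTumor-NoCD40, and no neighbouring groups in that order differed past the threshold. Pdcd1lg2 ran from Tumor-CD40 through Tumor-NoCD40 and NoTumor-CD40 to NoTumor-NoCD40, and only the last step passed it. The step from Tumor-NoCD40 to NoTumor-CD40 was not tested, and those libraries overlapped.

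**Figure D2:**
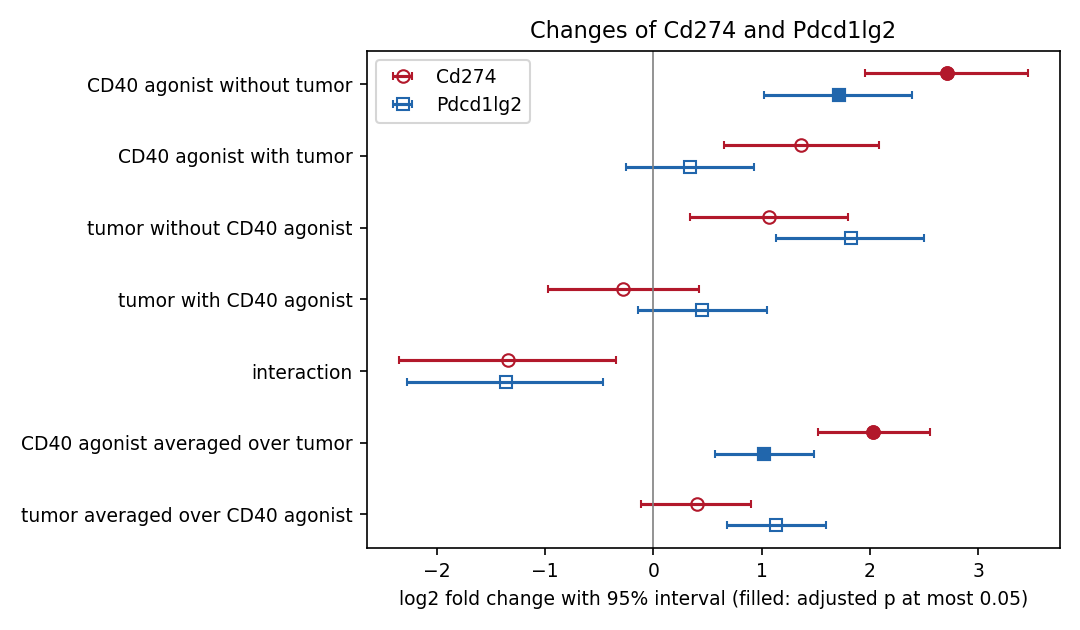
Log2 fold change with its 95% interval (edgeR) of Cd274 and Pdcd1lg2 in the 7 comparisons, with filled symbols for an adjusted p of at most 0.05 and a vertical line at no change. Cd274 has its largest value for the agonist without a tumor, 2.71, and Pdcd1lg2 for the tumor without agonist, 1.82, which did not pass the adjusted threshold.

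The titles of the libraries open with a run of digits that the labels do not explain, and libraries that share it were compared pair by pair. For Cd274 the agonist library was higher in 2 of 2 pairs without a tumor (log2 differences 1.88 and 2.32) and in 3 of 3 pairs with one (0.84 to 2.15). For Pdcd1lg2 it was higher in 2 of 2 pairs without a tumor (1.19 and 1.49) and in 2 of 3 with one (-0.16 to 0.83). The tumor library without agonist was higher in 2 of 2 pairs for both ligands, by 0.47 and 0.95 for Cd274 and by 1.45 and 1.60 for Pdcd1lg2. With agonist the tumor library was higher in 1 of 3 pairs for Cd274 (-0.80 to 0.74) and in 2 of 3 for Pdcd1lg2 (-0.05 to 1.08). NoTumor-NoCD40 library 3 shares its digits with no other library and enters no pair.

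Per transcript length, PD-L1 mRNA was the more abundant in every library, with Pdcd1lg2 represented by 1 of its 2 annotated transcripts. In TPM (a level scaled by transcript length), Cd274 stood at 34.1, 47.9 and 41 in Tumor-CD40 libraries, 47.7, 28.6 and 79.4 in NoTumor-CD40, 18.6, 10.4 and 18.1 in Tumor-NoCD40 and 9.26, 6.97 and 4.65 in NoTumor-NoCD40. Pdcd1lg2 stood at 6.11, 9.04 and 8.41 TPM in Tumor-CD40 libraries, 6.19, 4.28 and 7.33 TPM in NoTumor-CD40, 6.64, 4.88 and 6.85 TPM in Tumor-NoCD40 and 2.13, 1.68 and 1.03 TPM in NoTumor-NoCD40. Among tested genes, the TPM of Cd274 ranked between the 53.7 and 92.3 percentile and that of Pdcd1lg2 between the 34.6 and 65.7 percentile. The group means were 41 ± 6.89, 51.9 ± 25.7, 15.7 ± 4.6 and 6.96 ± 2.31 TPM for Cd274 in the same order of groups, and 7.85 ± 1.54, 5.93 ± 1.54, 6.12 ± 1.08 and 1.62 ± 0.554 TPM for Pdcd1lg2 (SD, n = 3 each).

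The ratio of Cd274 TPM to Pdcd1lg2 TPM separated all 4 groups. It was 5.58, 5.3 and 4.88 in Tumor-CD40 libraries, 7.71, 6.66 and 10.8 in NoTumor-CD40, 2.79, 2.12 and 2.64 in Tumor-NoCD40 and 4.34, 4.14 and 4.51 in NoTumor-NoCD40. No library of one group fell within the range of another, so PD-L1 outweighed PD-L2 most with agonist and no tumor and least with tumor and no agonist. How often the ratio of 2 other genes separates the 4 groups in this way was not determined. The geometric means were 5.25 in Tumor-CD40, 8.23 in NoTumor-CD40, 2.5 in Tumor-NoCD40 and 4.33 in NoTumor-NoCD40. In log2 these are 2.39 ± 0.10, 3.04 ± 0.36, 1.32 ± 0.21 and 2.11 ± 0.06 (SD, n = 3 each).

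Within tumor states the agonist raised the ratio 2-fold (log2 difference 1.0), and within agonist states the ratio with a tumor was 0.607 times that without (log2 difference -0.72). Each had an exact two-sided permutation p of 0.005, the smallest that the 400 arrangements within strata can give, and 0.005 after Benjamini-Hochberg adjustment over these 2 tests. The agonist difference was 0.93 without and 1.07 with a tumor, and the tumor difference was -0.79 without and -0.65 with agonist. Single comparisons of 3 against 3 libraries gave an exact p of 0.1, the smallest possible. The 14 alternatives, leaving out each library among them, gave 0.90 to 1.15 for the agonist and -0.80 to -0.49 for the tumor. Between libraries that share the digits of the title, the ratio was higher with agonist in 2 of 2 and 3 of 3 pairs, and higher with tumor in 0 of 2 and 0 of 3 pairs. Since the ratio is taken within a library, it does not depend on the scaling between libraries.

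**Figure D3:**
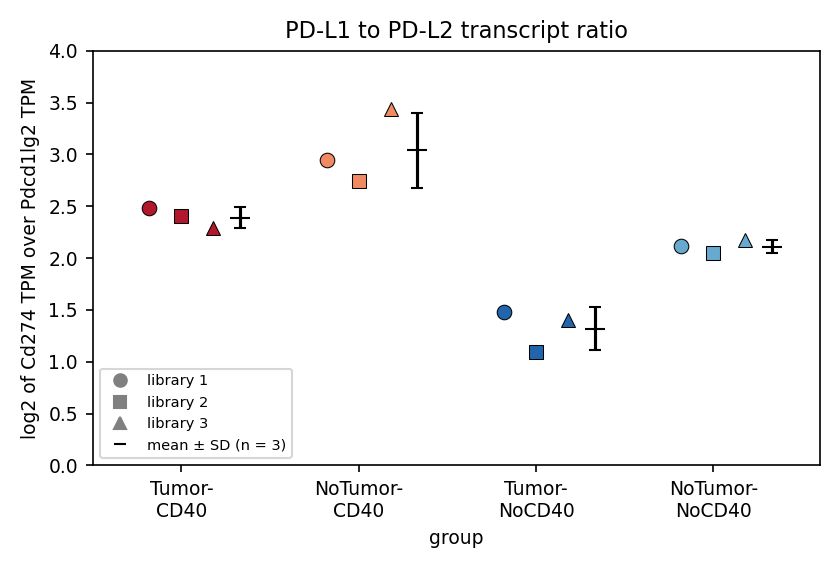
Log2 of the ratio of Cd274 TPM to Pdcd1lg2 TPM in each library by group, with the group mean ± SD (n = 3) beside the points. The 4 groups do not overlap, with NoTumor-CD40 highest at a mean of 3.04 and Tumor-NoCD40 lowest at 1.32.

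Within groups the ligands moved together from library to library. Deviations of log2 CPM from the group mean had a Pearson r of 0.92 (exact permutation p = 0.00231 over 1296 within-group arrangements, n = 12 libraries) and a Spearman rho of 0.87 (exact p = 0.00849). Without NoTumor-NoCD40 library 3 and NoTumor-CD40 library 2, the libraries farthest from the median deviation of Cd274, r was 0.86. The 12 deviations come from 4 groups whose means were removed, and each pair of values shares its library. Within Tumor-CD40, both ligands were highest in library 2. In Tumor-NoCD40 both were lowest in library 2, in NoTumor-CD40 both were lowest in library 2, and in NoTumor-NoCD40 both were lowest in library 3.

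Genes of the mature dendritic cell state also varied between the libraries of a group. The list of 19 such genes, which holds the homing receptor Ccr7 and the actin bundler Fscn1, summed to 13795, 11366 and 10850 CPM in Tumor-CD40 libraries, 19939, 11924 and 27273 CPM in NoTumor-CD40, 16027, 6016 and 19208 CPM in Tumor-NoCD40 and 11136, 6682 and 4850 CPM in NoTumor-NoCD40. The libraries lowest in both ligands within NoTumor-CD40, Tumor-NoCD40 and NoTumor-NoCD40 were also lowest in this sum. In Tumor-CD40 the order was not shared, since library 1 had the highest sum and the lowest level of both ligands. In Tumor-NoCD40 the sum was highest in library 3 and both ligands in library 1. The association was not tested. Of the list, Lamp3 was listed at 0 in every NoTumor-CD40 library, and in the other groups no gene was at 0 in all libraries. The cDC1 marker sum ran the other way in NoTumor-CD40 and Tumor-NoCD40: it was 4432, 7840 and 2460 CPM in NoTumor-CD40 libraries and 4082, 11122 and 1923 CPM in Tumor-NoCD40 libraries, highest each time in library 2. The part of the mature state in the ligands' differences was not tested.

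Set against that sum, a description chosen after the values were seen, Cd274 amounted to 1.35%, 2.13% and 1.83% of it in Tumor-CD40 libraries and 1.34%, 1.22% and 1.27% in NoTumor-CD40. It amounted to 0.649%, 0.909% and 0.445% in Tumor-NoCD40 and 0.482%, 0.589% and 0.478% in NoTumor-NoCD40. The libraries with agonist lay above those without, and the share of all tested genes with this order on this scale was not determined. Pdcd1lg2 amounted to 0.117%, 0.195% and 0.184% in Tumor-CD40, 0.0835%, 0.0879% and 0.0571% in NoTumor-CD40, 0.112%, 0.208% and 0.0811% in Tumor-NoCD40 and 0.0533%, 0.0689% and 0.0507% in NoTumor-NoCD40. On this scale the NoTumor-CD40 and NoTumor-NoCD40 libraries of Pdcd1lg2 overlapped, and all libraries with a tumor except Tumor-NoCD40 library 3 lay above all those without.

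**Figure D4:**
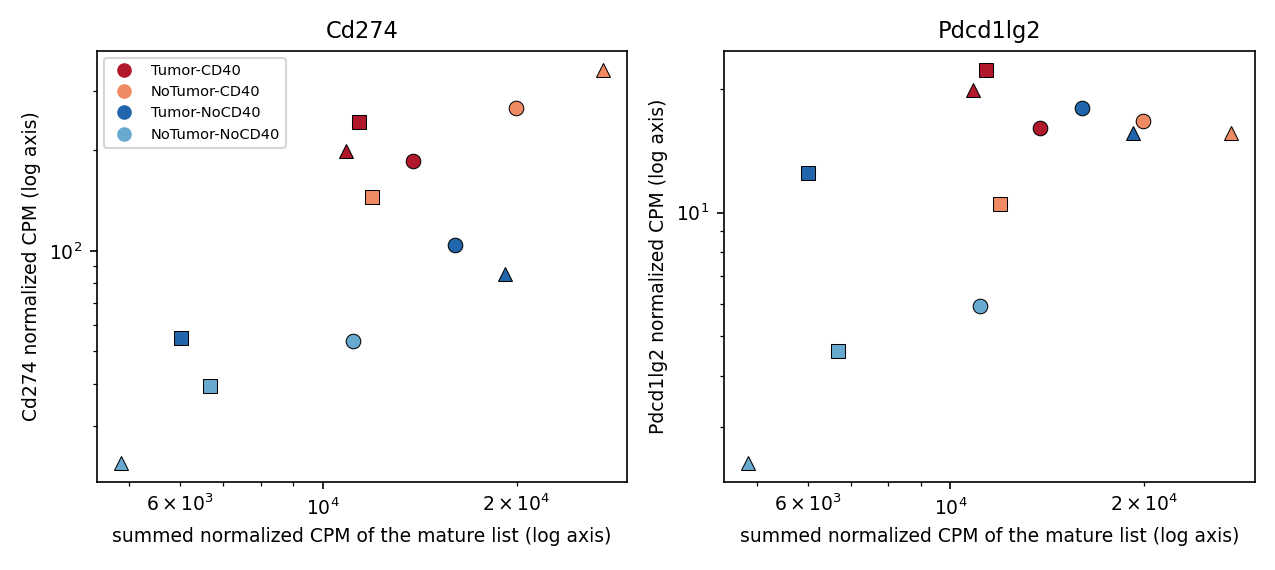
Level of each ligand (CPM, log axis) against the summed CPM of the 19 mature dendritic cell genes (log axis), 1 point per library, coloured by group and shaped by library number. At similar sums, the agonist libraries of Cd274 lie above those without agonist, while those of Pdcd1lg2 intermingle with Tumor-NoCD40.

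Of the 18 tested mature-state genes, 4 rose with the agonist without a tumor and 0 fell, against 1.36% and 0.0829% of all genes, with a median log2 fold change of 1.08 against -0.04 over all tested genes. They were Bcl2l14 (2.54 ± 0.31, edgeR adjusted p = 0.00272), the inhibitory ligand Cd200 (1.92 ± 0.36, 0.0199), Ccr7 (1.88 ± 0.40, 0.0326) and the chemokine Ccl17 (2.33 ± 0.50, 0.0387). Ccr7 averaged 1512 ± 117 CPM in Tumor-CD40, 2224 ± 953 CPM in NoTumor-CD40, 1227 ± 579 CPM in Tumor-NoCD40 and 604 ± 225 CPM in NoTumor-NoCD40 (SD, n = 3 each). With a tumor 0 of 18 passed and the median was -0.22. For the tumor without agonist the median was 0.74 and 0 passed. The count of 4 was 1 without NoTumor-CD40 library 1 or 3 or NoTumor-NoCD40 library 2 or 3, 2 without Tumor-NoCD40 library 1 or Tumor-CD40 library 2 or 3, 9 without NoTumor-CD40 library 2, and 10 without Tumor-NoCD40 library 2 or with DESeq2. It was 1 with limma on either TPM scale. Xcr1, the chemokine receptor that marks cDC1, averaged 250 ± 52.1, 277 ± 243, 338 ± 314 and 659 ± 134 CPM in the same order of groups and passed in none of these comparisons.

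The other binding partners differed among themselves. Cd80, which encodes the costimulatory ligand that pairs with PD-L1 in cis, rose with the agonist without a tumor (1.76 ± 0.27, edgeR adjusted p = 0.00717) and on average (1.42 ± 0.19, adjusted p = 0.00127). Its mean was 77.9 ± 12.4 CPM in Tumor-CD40, 97.9 ± 35.3 CPM in NoTumor-CD40, 36.9 ± 6.99 CPM in Tumor-NoCD40 and 29.0 ± 4.41 CPM in NoTumor-NoCD40 (SD, n = 3 each). Without a tumor the Cd80 call was not made without NoTumor-NoCD40 library 2 (adjusted p = 0.062) or library 3 (0.0739). Rgmb, the PD-L2 partner, had 0.71 ± 0.33 without a tumor (edgeR adjusted p = 0.277) and -0.89 ± 0.33 with one (0.365). Pdcd1, the receptor PD-1 itself, was low in all groups, at 6.26 ± 2.94, 3.15 ± 0.474, 11.8 ± 12.9 and 2.3 ± 1.54 CPM in the same order, and did not pass. In Tumor-NoCD40, where its SD exceeded its mean, the T cell marker sum was 272, 97.3 and 526 CPM by library. Which cells gave the Pdcd1 RNA was not tested. The other B7 family ligands gave 1 of 5 tested genes higher without a tumor, against 1.36% of all genes, which was Cd80, with a median of 0.56, and 0 of 5 with one (median 0.37). With a tumor, 1 of these 5 was called higher with DESeq2 and without NoTumor-CD40 library 2. The same held for 1 of the 3 partners Cd80, Rgmb and Pdcd1. An unadjusted p under 0.05 (edgeR) was found with a tumor for 1 of 5 and 2 of 3, against 9.96% of all tested genes. Vtcn1 was not tested for its low counts.

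Genes of interferon signaling, the classical inducer of PD-L1, gave 1 call without a tumor and 0 with one. Of 9 genes of the interferon gamma route, 1 was higher with agonist without a tumor, the transcription factor Irf1 (1.59 ± 0.37, edgeR adjusted p = 0.0499), against 1.36% of all genes, and the list's median was 0.34. The Irf1 call lay at the threshold and was not made in 13 of 19 alternatives, among them leaving out any library other than NoTumor-CD40 2, Tumor-NoCD40 2 or Tumor-NoCD40 3. With a tumor 0 of 9 passed (median 0.09). Jak2, the kinase of this route and a neighbour of the ligands, had 0.08 ± 0.16 without a tumor and -0.05 ± 0.16 with one. Of 6 type I interferon signaling genes, Stat2 (0.57 ± 0.13, adjusted p = 0.0381) and Irf7 (1.33 ± 0.31, 0.0379) rose on average, against 2.17% of all genes, and 0 did without a tumor (median 0.45) or with one (0.28). The Stat2 call was made in 9 and the Irf7 call in 8 of 19 alternatives. Of the fits with 1 library left out, both were called in those without NoTumor-CD40 2, Tumor-NoCD40 2 or Tumor-CD40 3, Stat2 also without NoTumor-NoCD40 3 and Irf7 also without Tumor-NoCD40 3.

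Genes of the PD-L2 inducers gave 1 of 10 called without a tumor, against 1.36% of all tested genes called higher, and 3 of 10 on average, against 2.17%. Il4ra, the IL-4 receptor alpha chain, rose without a tumor (1.51 ± 0.31, edgeR adjusted p = 0.0313) and on average (0.90 ± 0.22, 0.0454). The average calls also held Il2rg, the common gamma chain (0.98 ± 0.21, adjusted p = 0.0214), and Jak3, the kinase bound to it (0.62 ± 0.14, 0.0385). Stat6, which acts below the IL-4 receptor, had 0.33 ± 0.14 without a tumor (0.227). The medians were 0.39 without a tumor, -0.11 with one (0 of 10 called) and 0.43 for the tumor without agonist (0 of 10). The Il4ra calls were not made in 12 and 13, that of Il2rg in 8 and that of Jak3 in 12 of 19 alternatives, most of them fits with 1 library left out. Leaving out any library other than NoTumor-CD40 2 or Tumor-NoCD40 3 took the averaged count to 0 or 1, while the count without a tumor was 2 without Tumor-NoCD40 library 3, 3 without NoTumor-CD40 library 2 or Tumor-NoCD40 library 2, and 0 without any of the others.

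Of 14 genes from CD40 to NF-kB, Traf1, an adaptor and NF-kB target, was the 1 called without a tumor (1.45 ± 0.29, edgeR adjusted p = 0.0277) and on average (1.01 ± 0.20, 0.018), against 1.36% and 2.17% of all tested genes called higher. Traf1 averaged 845 ± 89.1 CPM in Tumor-CD40, 1173 ± 360 CPM in NoTumor-CD40, 570 ± 210 CPM in Tumor-NoCD40 and 431 ± 91.4 CPM in NoTumor-NoCD40 (SD, n = 3 each). The list's median was 0.78 without a tumor, 0.02 with one (0 of 14 called) and 0.40 for the tumor without agonist. The count without a tumor was 0 without NoTumor-CD40 library 1 or 3 or NoTumor-NoCD40 library 2 or 3, 2 without Tumor-NoCD40 library 3, 6 without NoTumor-CD40 library 2, and 7 without Tumor-NoCD40 library 2 or with DESeq2. It was 0 with limma on either TPM scale. On average Traf1 was not called without NoTumor-NoCD40 library 2 or 3 or Tumor-CD40 library 2.

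Genes that handle the PD-L1 protein after synthesis gave no call with edgeR, in a list where the background share of 1.36% without a tumor, 0.641% with one and 2.17% on average would give under 1 call of 14. The 14 genes, among them Cmtm6, which keeps PD-L1 at the surface, the deubiquitinase gene Cops5 and the ubiquitin ligase adaptor Spop, had 0 calls for the agonist without a tumor (median -0.09), with one (0.00) and on average (-0.00), where DESeq2 called 1, 0 and 1, and an unadjusted p under 0.05 was found for 3 genes in each. Cmtm6 averaged 276 ± 13.2 CPM in Tumor-CD40, 388 ± 98.5 CPM in NoTumor-CD40, 373 ± 113 CPM in Tumor-NoCD40 and 262 ± 70.3 CPM in NoTumor-NoCD40 (SD, n = 3 each). Its log2 fold changes were 0.57 ± 0.26 without a tumor (edgeR adjusted p = 0.26) and -0.44 ± 0.26 with one (0.625). The tables hold mRNA, so protein at the surface was not measured.

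With a tumor the agonist gave 0 calls in these lists with edgeR. An unadjusted p under 0.05 was found there for 3 of 18 mature-state genes, 1 of 9 interferon gamma genes, 3 of 6 type I interferon genes, 3 of 10 IL-4 and GM-CSF genes, 1 of 14 CD40 to NF-kB genes and 3 of 14 PD-L1 handling genes, against 9.96% of all tested genes. DESeq2 called 1, 1, 1, 0, 0 and 0 of them higher in the same order. For the tumor without agonist, where edgeR called none, the unadjusted counts were 8, 1, 0, 4, 2 and 1 in that order of lists, against 5.82% of all tested genes.

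Around the ligands, 15 genes are annotated within 300 kb, 12 of them had a transcript row and 8 were tested. Ric1, a gene of Golgi trafficking to the right of Pdcd1lg2, was the 1 of 8 called with the agonist without a tumor (1.30 ± 0.26, edgeR adjusted p = 0.0277) and on average (0.81 ± 0.18, 0.0324), against 1.36% and 2.17% of all tested genes called higher. It averaged 107 ± 17.2 CPM in Tumor-CD40, 139 ± 54.8 CPM in NoTumor-CD40, 85.4 ± 16.9 CPM in Tumor-NoCD40 and 56.2 ± 11.7 CPM in NoTumor-NoCD40 (SD, n = 3 each). The Ric1 call without a tumor was not made without NoTumor-CD40 library 1 or 3 or NoTumor-NoCD40 library 2 or 3 (adjusted p 0.0603 to 0.172), and a 2nd neighbour was called without Tumor-NoCD40 library 2. On average it was called in 8 of 19 alternatives, and of the fits with 1 library left out in those without NoTumor-NoCD40 1, Tumor-CD40 1, NoTumor-CD40 2 or Tumor-NoCD40 3. Plgrkt, a plasminogen receptor gene whose start is nearest to that of Cd274, had 0.50 ± 0.23 (adjusted p = 0.26). Insl6, an insulin-like peptide gene, had 1.5 ± 0.46 (0.127). The antisense gene A930007I19Rik overlaps Pdcd1lg2 and averaged 0.467, 0.525, 0.314 and 0.416 CPM in the same order of groups. Within the span of Cd274 lies the antisense gene AC119228.1, which had no transcript row. The library kit marks strand, per the labels' protocols. How the quantification used strand is not given in the sources used here, so reads of both overlaps are uncertain.

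**Figure D5:**
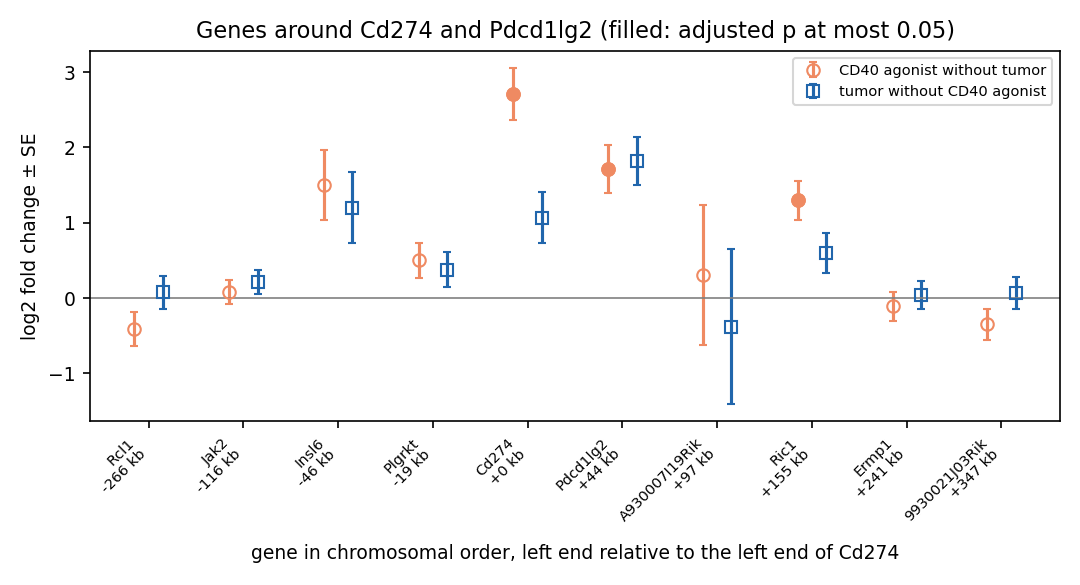
Log2 fold change ± SE (edgeR) of the ligands and the tested genes within 300 kb, in chromosomal order, for the CD40 agonist without tumor (circles) and the tumor without agonist (squares), with filled symbols for an adjusted p of at most 0.05 and the distance in kb of each left end from that of Cd274 under its name. For the agonist Cd274 at 2.71, Pdcd1lg2 at 1.71 and Ric1 at 1.30 are filled, Jak2 lies at 0.08, and for the tumor no symbol is filled.

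The genes whose log2 CPM followed each ligand most closely over the 12 libraries were listed as a description, out of 10221 tested genes averaging 5 CPM or more. For Cd274 they were Adap1 (Pearson r 0.990), the semaphorin gene Sema7a (0.988), the endocytic recycling gene Ehd1 (0.987), the transcription factor Spib (0.984), which is also in the plasmacytoid list, and Bcl2l14 (0.983). Pdcd1lg2 ranked 389 in that list, at 0.840. For Pdcd1lg2 they were Uhmk1 (0.959), the actin-severing Scin (0.954), Ifitm2 (0.933), Flrt3 (0.927) and Rnaset2a (0.924), and Cd274 ranked 48. Rnaset2a has a near-identical copy, so its value is uncertain. The 2 lists of 5 share no gene.

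Sema7a and Scin, chosen by that likeness, are given in CPM as a description. Sema7a averaged 450 ± 56.1 CPM in Tumor-CD40, 669 ± 318 CPM in NoTumor-CD40, 176 ± 52.9 CPM in Tumor-NoCD40 and 78.4 ± 18.7 CPM in NoTumor-NoCD40 (SD, n = 3 each). Scin averaged 90.5 ± 17.1 CPM in Tumor-CD40, 78.3 ± 49.1 CPM in NoTumor-CD40, 68.7 ± 17.3 CPM in Tumor-NoCD40 and 17.5 ± 7.37 CPM in NoTumor-NoCD40 (SD, n = 3 each). By deviation from the group means, the closest to Cd274 were Rnf114 (0.991), Ncoa4 (0.985), Adap1 (0.979), Tmed4 (0.975) and Glipr2 (0.975), with Pdcd1lg2 at rank 95. The closest to Pdcd1lg2 were Ifitm2 (0.953), Dctn3 (0.949), Decr1 (0.948), the pseudogene Morf4l1-ps1 (0.936) and Eapp (0.935), with Cd274 at rank 13. By Spearman's rho in place of Pearson's r, 2 of 5 genes of Cd274 and 0 of 5 of Pdcd1lg2 by level were shared with these lists.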

How the data were processed

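Per the labels' protocols, total RNA was made into strand-marked libraries (NEBNext Ultra II Directional). Transcripts were quantified with Salmon against mm10, per the submitters' processing notes. The deposited data carry the name Sailfish instead, so the quantifier is uncertain. Version, annotation release and strand setting are not given in the sources used here. The authors deposited expected counts (estimated reads per transcript, not normalized) and, per transcript, TPM, which are scaled by length to the same total in each library. With GENCODE M21, 136176 of 136288 transcripts were summed to 53458 genes, and the other 112 held 0.0279% to 0.0457% of a library's counts. Expected counts were rounded after summing.

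Groups were compared with edgeR 4.0.16 in R 4.3.3: TMM scaling (factors 0.936 to 1.074), filterByExpr by group (minimum count 10, total 15), 1 model of the 4 groups over 12 libraries (8 residual degrees of freedom, legacy = FALSE), two-sided quasi-likelihood tests in 7 comparisons, and Benjamini-Hochberg adjustment over 18095 genes with a threshold of 0.05. Fits were tested on simulated data. Alternatives were RLE scaling, no filter, legacy = TRUE, DESeq2 1.42.0, limma 3.58.1 on log2(TPM + 1) and log2(TPM + 0.1), the title digits as a block, and each library left out. The ratio of TPM was tested by exact permutation within strata. The text names the ligands, their tested neighbours, up to 4 called members per list and comparison, a panel of 11 genes, and the 5 genes most like each ligand (log2 CPM, prior count 2). Other list members named without a call, and the CPM of Traf1, Sema7a, Scin and Ric1, add description. The ligands, lists, panel and tests were chosen with earlier results of these data known. The number of expected counts behind a value limits its precision. The averaged agonist result of the interferon gamma list is not reported here.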

Additional observations from a re-analysis of the deposited data

How the results depend on the processing

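For the agonist without a tumor, Cd274 stayed past the threshold in 19 of 19 alternatives (log2 fold change 2.31 to 3.01, adjusted p 3.49e-12 to 0.0331), and likewise averaged over tumor states (1.87 to 2.19). With a tumor it passed with no low-count filter (1.36), DESeq2 (1.37) and the title digits as a block (1.43), and leaving out a library gave 1.14 to 1.57. Its tumor value with agonist ranged from -0.55 to 0.04 with a library left out, and that of its transcript row from -0.53 to 0.05. Pdcd1lg2 without a tumor was not called with limma on log2(TPM + 1) (1.40), on log2(TPM + 0.1) (1.84) or with the block (1.40, adjusted p = 0.113), and ranged from 1.43 to 2.0 with a library left out. Its averaged agonist value was 0.86, 1.09 and 0.88 in those fits, with none past the threshold (adjusted p = 0.0933, 0.077 and 0.0503). With a library left out it was 0.90 to 1.17. Its tumor value without agonist passed with DESeq2 (1.85). Averaged over agonist states it passed with no filter (1.15) and DESeq2 (1.15), with 1.01 to 1.28 when a library was left out. The cause of these shifts was not tested. Libraries that share title digits were only weakly alike: in 15 such pairs the deviations correlated at 0.004 to 0.228 (median 0.063), over 0.1 in 3. In 39 pairs that do not share them the range was -0.190 to 0.088 (median -0.029), over 0.1 in 0. The block was used only as an alternative. Under the RLE scaling no direction of a ligand changed.

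Genes called in the order agonist without tumor, agonist with tumor, tumor without agonist, tumor with agonist, interaction, averaged agonist and averaged tumor were 261, 124, 0, 36, 0, 454 and 3. They were 401, 200, 1, 89, 0, 548 and 36 with no filter, 913, 316, 29, 166, 18, 962 and 122 with DESeq2, and 198, 61, 0, 0, 0, 363 and 0 under legacy = TRUE. They were 31, 29, 0, 12, 2, 133 and 2 with limma on log2(TPM + 1), 29, 21, 0, 6, 0, 149 and 0 on log2(TPM + 0.1), and 48, 229, 0, 83, 0, 437 and 3 with the replicate block. With a library left out they ranged from 22 to 947, 26 to 226, 0 to 2, 0 to 71, 0 to 0, 221 to 870 and 0 to 45. With the block, 0 of the CD40 to NF-kB genes and 2 of the mature-state genes were called higher with agonist without a tumor. The fewest expected counts behind a value of a ligand were 60, for Pdcd1lg2.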

Other observations

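Among the mature dendritic cell genes, Aldh1a2, which encodes the enzyme that makes retinoic acid, was higher with a tumor, as an average over agonist states (log2 fold change 2.03 ± 0.27 SE, edgeR adjusted p = 0.0471, against 0.0166% of tested genes called). Its level was 13.4 ± 2.68 CPM in Tumor-CD40, 4.83 ± 2.08 CPM in NoTumor-CD40, 28.2 ± 8.68 CPM in Tumor-NoCD40 and 4.67 ± 2.04 CPM in NoTumor-NoCD40 (SD, n = 3 each). The agonist gave 0.04 ± 0.43 without a tumor (adjusted p = 0.973) and -1.07 ± 0.33 with one (0.234). The averaged call was made in 9 of 19 alternatives. Of the fits with 1 library left out, it was not made without Tumor-CD40 library 1 or 3, Tumor-NoCD40 library 1, NoTumor-CD40 library 2 or 3, or NoTumor-NoCD40 library 2 or 3 (log2 fold change 1.89 to 2.18, adjusted p 0.0569 to 0.25).

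Ccl17, the mature-state chemokine gene called with the agonist without a tumor, averaged 27.9 ± 15.3 CPM in Tumor-CD40, 40.8 ± 17.1 CPM in NoTumor-CD40, 31.9 ± 11.4 CPM in Tumor-NoCD40 and 8.08 ± 5.91 CPM in NoTumor-NoCD40 (SD, n = 3 each). Its tumor value without agonist was 1.97 ± 0.51 (edgeR adjusted p = 0.775).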
